A study of Mus musculus with 2 samples.

Results

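The 8 genes *Sox8*, *Sox9*, *Sox10*, *Foxd3*, *Ets1*, *Zeb2*, *Erbb3* and *Ednrb*, known regulators and receptors of the neural crest, were taken by name from the 27998 genes counted in both libraries. Cells had been isolated from the ocular area of C57BL/6J mouse embryos at the 26 somite stage (E9.25), from 1 wild-type embryo (WT) and 1 *Mab21l1*-null embryo (KO), with both optic areas of an embryo in 1 single-cell library. *Mab21l1* is needed for the growth of the lens ectoderm, and the labels name no further allele or treatment. As 1 library stood for each genotype, differences between them were not tested, and genotype, embryo and library cannot be told apart. *Mab21l1* UMIs were counted at 20.3 CPM [19.0, 21.7] (886 UMIs) in the WT-labelled library and at 32.3 CPM [30.8, 33.9] (1718 UMIs) in the KO-labelled library. By class *Mab21l1* was lower in the KO-labelled library in surface ectoderm, the layer that holds the lens ectoderm (80.3 and 40.5 CPM, 68 and 16 UMIs, 0.50 [0.27, 0.88]), and higher in the optic vesicle (29.4 and 51.4 CPM, 1.75 [1.59, 1.92]). The libraries are therefore named by their labels, on which each direction below rests. A unique molecular identifier (UMI) marks 1 captured transcript, and CPM is the UMI sum of a gene per 1000000 UMIs of the same cells. Brackets give exact 95% intervals, Poisson for a level, binomial (Clopper-Pearson) for a share of cells and conditional on the summed UMIs for a ratio, and they cover counting error only.

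The neural crest leaves the edge of the neural tube, migrates into the head and gives rise to facial and periocular mesenchyme as well as to glia, pigment cells and neurons. The SoxE transcription factors act at successive points of this path: *Sox9* early and later in cartilage, *Sox10* in migrating crest and then in glia and pigment cells, with *Sox8* overlapping both. *Foxd3* keeps crest cells undifferentiated, *Ets1* acts in cranial crest and in endothelium, and *Zeb2* represses E-cadherin during crest delamination. *Erbb3* binds neuregulins and signals through a partner receptor, and *Ednrb* is the endothelin receptor of crest cells that form enteric neurons and pigment cells.

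In the GENCODE annotation of GRCm38, *Sox8* lies at chr17:25565892-25570686 on the minus strand, *Sox9* at chr11:112782224-112787760 on the plus strand and *Sox10* at chr15:79154908-79165240 on the minus strand. *Foxd3* lies at chr4:99656299-99658622 (plus), *Ets1* at chr9:32636221-32757820 (plus) and *Zeb2* at chr2:44983632-45117395 (minus). The receptor genes are *Erbb3* at chr10:128567523-128589652 and *Ednrb* at chr14:103814625-103844402, both on the minus strand. Exons of *Sox8* overlap those of *2810468N07Rik* and exons of *Zeb2* those of *Gm27761* and *Zeb2os*, each on the other strand. On the same strand *Foxd3* overlaps *Gm23366* and *Zeb2* overlaps *Mir5129*. Whether any UMI was affected at these places was not tested.

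RefSeq promoters (GRCm38.p6) were matched for 4 of the 8 genes, *Sox8*, *Foxd3*, *Zeb2* and *Ednrb*. Those of *Sox8* and *Foxd3*, the members with the fewest UMIs in *Sox10*-positive cells, where both had their highest level (below), are shown over the 250 bases before the transcription start, *Sox8* at chr17:25570687-25570936 on the minus strand and *Foxd3* at chr4:99656049-99656298 on the plus strand, 5′ to 3′. Capitals mark the palindromic E-box CACGTG, a motif bound by basic helix-loop-helix factors, which was picked after the sequences were seen.
Sox8: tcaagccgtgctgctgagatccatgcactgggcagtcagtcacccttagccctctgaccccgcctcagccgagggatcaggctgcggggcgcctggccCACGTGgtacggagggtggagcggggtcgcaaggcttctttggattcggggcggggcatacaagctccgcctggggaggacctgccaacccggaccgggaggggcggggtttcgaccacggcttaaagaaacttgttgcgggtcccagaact
Foxd3: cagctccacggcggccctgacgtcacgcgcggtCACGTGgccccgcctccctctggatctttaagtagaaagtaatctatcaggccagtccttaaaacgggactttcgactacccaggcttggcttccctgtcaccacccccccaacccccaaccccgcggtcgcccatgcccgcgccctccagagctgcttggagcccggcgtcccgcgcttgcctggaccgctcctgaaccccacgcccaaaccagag
The CACGTG began 152 bases before the start of *Sox8* and 217 bases before that of *Foxd3*, and 1978 of 32851 promoters of the same length (6.02%) held it on either strand. Letters of a SOX site (ACAAAG, in 16.5% of promoters), of a ZEB-type E2-box (CAGGTG, 17.2%) and of an ETS site (CGGAAG, 13.6%), searched on both strands, were in neither window. Among the other matched promoters 1 of 4 starts of *Zeb2* held ACAAAG, 62 bases before the start, and no window held more than 1 match, so none overlapped.

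After filtering, the WT-labelled library held 1680 cells and 41880035 UMIs (median 21037 per cell), and the KO-labelled library 2404 cells and 52430844 UMIs (median 18135). Both libraries shared 15 barcode sequences, none of them in a *Sox10*-positive cell. A cell with at least 2 *Sox10* UMIs was called *Sox10*-positive, and every other cell joined the class of which it showed at least 50% of the markers, if no other class reached that share. The gates gave 36 and 41 *Sox10*-positive cells in the libraries labelled WT and KO, 476 and 734 mesenchyme cells, 62 and 98 endothelium cells, 760 and 1112 optic vesicle cells, 46 and 26 surface ectoderm cells, 36 and 49 erythroid cells and 17 and 7 macrophage cells. A forebrain gate held 5 and 13 cells and only 3 and 4 of its 6 markers were at least 2-fold above the other cells, so it is named by its rule alone. In the other classes every marker was at least 2-fold above the other cells in both libraries except *Moxd1* in *Sox10*-positive cells of the KO-labelled library. The same markers, or *Sox10* alone for *Sox10*-positive cells, set the gates, so this check is partly given by the rule. No member other than *Sox10* took part in the gates.

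*Sox10*-positive cells carried most of the program in the same cells. In each library the median cell held UMIs of 5 of the other 7 members, and 28 of 36 cells (WT) and 32 of 41 cells (KO) held 4 or more. At least 3 of 8 further crest markers, among them *Ngfr*, a neurotrophin receptor, were found in 36 of 36 and 40 of 41 cells. Over the 77 cells of both libraries *Zeb2* was found in 73, *Erbb3* in 62, *Ets1* in 59, *Ednrb* in 59, *Sox9* in 46, *Sox8* in 23 and *Foxd3* in 18. Both receptors, *Erbb3* and *Ednrb*, were found together in 51 cells, whereas *Sox8* and *Foxd3* were found together in 8. At the limit of the gate 5 and 10 cells had exactly 2 *Sox10* UMIs, and 10 and 18 cells with 1 *Sox10* UMI were left outside. A *Sox10*-positive cell held 2 to 14 *Sox10* UMIs (median 4.5) in the WT-labelled library and 2 to 13 (median 3) in the KO-labelled library.

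These cells were not of 1 kind. Of the *Sox10*-positive cells 10 of 36 (WT) and 17 of 41 (KO) also showed at least 50% of the markers of another class, the optic vesicle in 6 and 13 cells and the mesenchyme in 6 and 6. Their median of 28776.5 and 31353 UMIs per cell stood above the 16373 and 14734.5 UMIs of the other 26 and 24 cells. The summed level of the 6 optic vesicle markers in all *Sox10*-positive cells was 283 CPM in the WT-labelled library and 454 CPM in the KO-labelled library, with none of the 6 at 0, and in the 26 and 24 cells it was 20.2 and 11.1 CPM. The summed level of the 7 mesenchyme markers was 180 and 196 CPM in all *Sox10*-positive cells, none at 0, and that of the 8 further crest markers 1056 and 1030 CPM. These cells were kept, and each member's level is given with and without them.

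**Figure D1:**
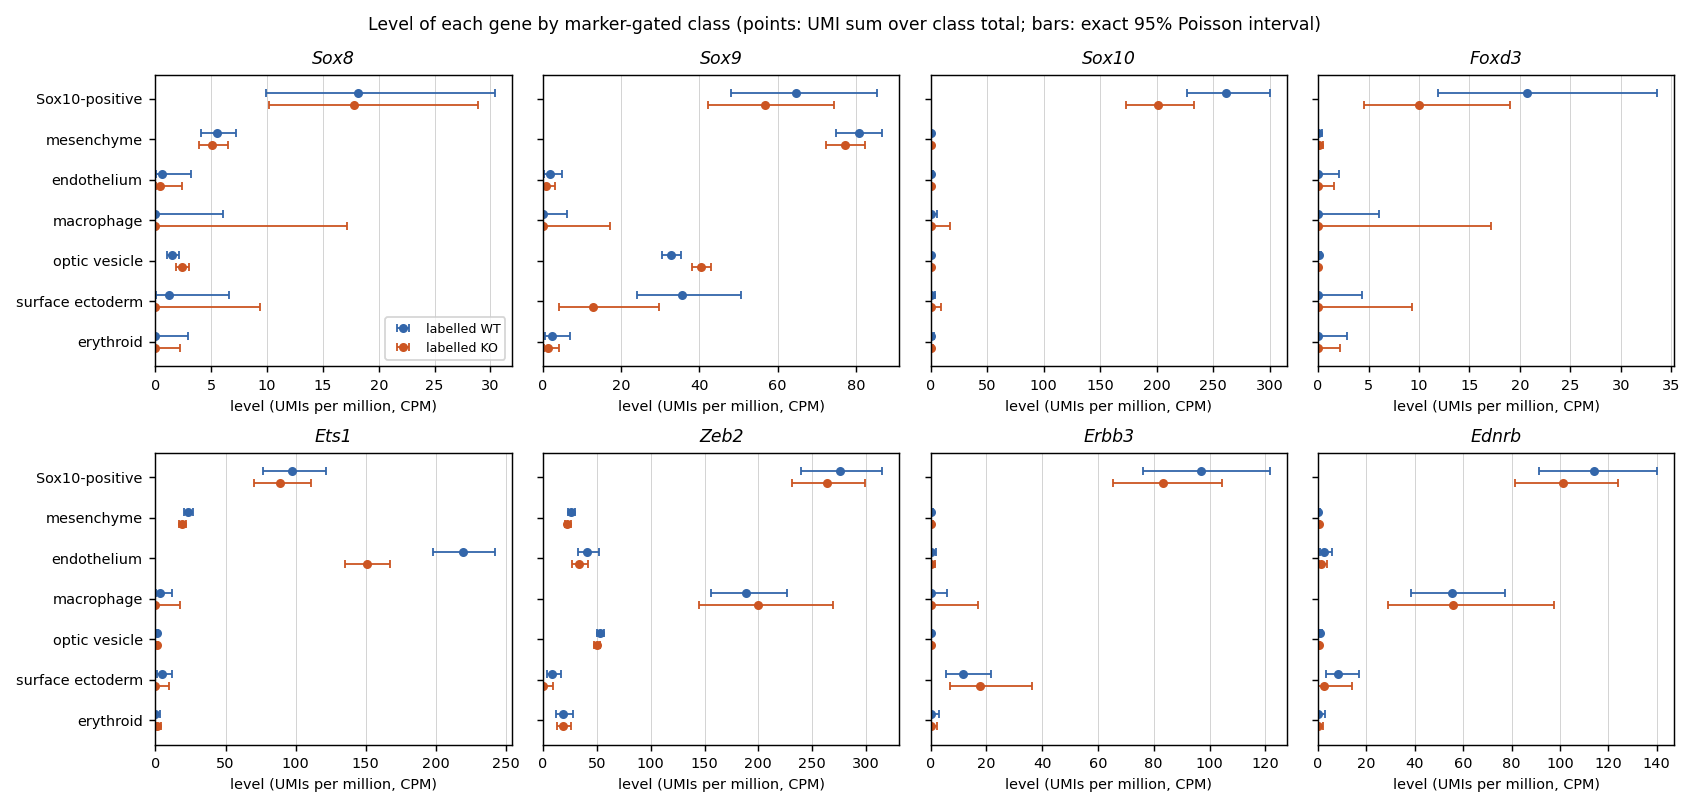
Level of each of the 8 genes in CPM (x axis, linear and different for each panel) in 7 marker-gated classes (y axis), with blue points for the WT-labelled library, orange points for the KO-labelled library and bars for the exact 95% Poisson interval. *Sox10*, *Foxd3* and *Erbb3* stood near 0 in mesenchyme and endothelium, whereas *Sox9* was highest in mesenchyme, *Ets1* in endothelium, and *Zeb2* and *Ednrb* had a further level in macrophages.

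Among the SoxE genes *Sox10*, which set the gate, was close to a private gene of its class. *Sox10* had 202 UMIs (261 CPM [227, 300]) in *Sox10*-positive cells of the WT-labelled library and 181 UMIs (201 CPM [173, 233]) in those of the KO-labelled library, values that the gate itself raised. The class held 95.3% and 91.0% of all *Sox10* UMIs, which the gate sets as well. Mesenchyme held 2 and 3 *Sox10* UMIs and the optic vesicle 6 and 6, or at most 0.29 CPM, and endothelium, macrophages, erythroid cells and surface ectoderm held none.

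*Sox9*, the chondrogenic SoxE factor, was counted mainly in mesenchyme, *Sox10*-positive cells, the optic vesicle and surface ectoderm. Its highest level was in mesenchyme, 80.7 CPM [75, 86.7] (737 UMIs) in the WT-labelled library and 77.2 CPM [72.3, 82.4] (915 UMIs) in the KO-labelled library. *Sox10*-positive cells followed at 64.7 CPM [48.0, 85.3] and 56.7 CPM [42.2, 74.5], and these intervals overlapped those of mesenchyme. The optic vesicle held 32.8 CPM [30.4, 35.4] and 40.5 CPM [38.1, 42.9], below mesenchyme by 2.46-fold [2.21, 2.73] and 1.91-fold [1.75, 2.09]. In surface ectoderm the level was 35.4 CPM (30 UMIs) and 12.7 CPM (5 UMIs), and endothelium and erythroid cells stood at or under 2.34 CPM in both libraries. *Sox9* UMIs were found in 64.5% and 62.0% of mesenchyme cells, or 31.7% and 35.1% after each cell was thinned to 6000 UMIs, against 8.33% and 4.08% of erythroid cells (2.78% and 2.04% thinned), which had the deeper medians of 32480.5 and 33437 UMIs per cell against 19077 and 15621.5.

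*Sox8* was the sparsest SoxE gene, with 106 and 166 UMIs in all kept cells. It was highest in *Sox10*-positive cells at 18.1 CPM [9.90, 30.4] (14 UMIs) and 17.8 CPM [10.2, 28.9] (16 UMIs). Mesenchyme stood lower, at 5.48 CPM [4.06, 7.22] and 5.06 CPM [3.86, 6.52], a difference of 3.31-fold [1.69, 6.08] and 3.51-fold [1.89, 6.17]. The optic vesicle came next with 1.49 CPM [1.01, 2.12] and 2.36 CPM [1.82, 3.01], and the 3 intervals were separate in both libraries. Although low per cell, the larger classes held most of the transcripts, so that *Sox10*-positive cells held 13.2% and 9.64% of all *Sox8* UMIs.

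Among the other transcription factors *Foxd3* had most of its UMIs in *Sox10*-positive cells. It had 16 UMIs (20.7 CPM [11.8, 33.6]) in *Sox10*-positive cells of the WT-labelled library and 9 UMIs (10.0 CPM [4.57, 19.0]) in those of the KO-labelled library. Mesenchyme held 0 and 1 *Foxd3* UMIs and the optic vesicle 1 and 0, although these classes were sampled with up to 27562396 UMIs. *Sox10*-positive cells thus held 80.0% and 75% of the *Foxd3* UMIs in the data.

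*Ets1* marked 3 classes at separate levels. Endothelium was highest with 387 UMIs (219 CPM [198, 242]) and 359 UMIs (151 CPM [135, 167]). *Sox10*-positive cells held 97.0 CPM [76.3, 122] and 88.9 CPM [70.5, 111], and mesenchyme 23.3 CPM [20.3, 26.7] and 19.0 CPM [16.6, 21.6]. Each step was separate in both libraries for the classes as gated, with *Sox10*-positive cells above mesenchyme by 4.16-fold [3.15, 5.44] and 4.68-fold [3.58, 6.07]. In the *Sox10*-positive cells that reached no other class *Ets1* was at 139 CPM [107, 179] and 134 CPM [98.5, 177]. The second of these intervals overlapped that of endothelium, so the upper step was not separate there in the KO-labelled library. Mesenchyme in turn was above the optic vesicle, at 0.96 and 1.05 CPM, by 24.2-fold [15.3, 40.4] and 18.1-fold [12.2, 27.6]. *Ets1* UMIs were found in 75% and 78.0% of *Sox10*-positive cells (50% and 51.2% thinned), against 2.63% and 2.52% of optic vesicle cells (0.526% and 0.270% thinned), with median depths of 18212 and 16965 UMIs against 24179 and 21106.

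*Zeb2*, the zinc-finger repressor, was counted in every class of the WT-labelled library, and the optic vesicle, the largest class, held 1105 and 1385 of its 2235 and 2436 UMIs. Its highest level was in *Sox10*-positive cells, 276 CPM [240, 315] (213 UMIs) and 263 CPM [231, 299] (237 UMIs). Macrophages, with no *Sox10* UMI, followed at 189 CPM [156, 227] and 200 CPM [145, 269], below *Sox10*-positive cells by 1.46-fold [1.16, 1.84] and 1.32-fold [0.95, 1.87]. In the *Sox10*-positive cells that reached no other class *Zeb2* was at 421 CPM [362, 485] and 451 CPM [384, 526], separate from macrophages in both libraries. The forebrain gate held 141 and 80.4 CPM on 15 and 18 UMIs. The optic vesicle held 53.2 CPM [50.1, 56.5] and 50.2 CPM [47.6, 53.0], below *Sox10*-positive cells by 5.18-fold [4.45, 6.00] and 5.24-fold [4.55, 6.02]. Endothelium (41.3 and 33.6 CPM), mesenchyme (26.0 and 22.7 CPM) and erythroid cells (18.7 and 18.7 CPM) stood lower, and the intervals of mesenchyme and erythroid cells overlapped. Surface ectoderm, the class defined by E-cadherin (*Cdh1*) and keratins, was lowest with 7 *Zeb2* UMIs (8.27 CPM [3.32, 17.0]) and 0 UMIs, which allows up to 7.60 CPM. *Zeb2* UMIs were found in 34.0% and 27.9% of mesenchyme cells (12.0% and 10.9% thinned) and in 44.4% and 44.9% of the deeper erythroid cells (5.56% and 16.3% thinned), so at equal depth mesenchyme was above this blood class in the WT-labelled library and below it in the KO-labelled library, with intervals that overlapped in both.

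Of the receptors *Erbb3* had a level in surface ectoderm beside the one in *Sox10*-positive cells. The 75 UMIs of either library gave 97.0 CPM [76.3, 122] and 83.3 CPM [65.5, 104] in *Sox10*-positive cells. Surface ectoderm held 10 UMIs (11.8 CPM [5.67, 21.7]) and 7 UMIs (17.7 CPM [7.13, 36.5]), 8.21-fold [4.23, 17.8] and 4.70-fold [2.17, 12.1] below. Mesenchyme and optic vesicle stood at or under 0.33 CPM, with 3 to 6 UMIs each in each library, and endothelium, macrophages and erythroid cells held no *Erbb3* UMI. *Erbb3* was found in 80.6% and 80.5% of *Sox10*-positive cells (50% and 46.3% thinned), against 0 of 36 and 0 of 49 erythroid cells, which allows shares of up to 8.33% and 6.12% of cells with a UMI.

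*Ednrb* had its second level in macrophages. In *Sox10*-positive cells it had 88 UMIs (114 CPM [91.3, 140]) and 91 UMIs (101 CPM [81.4, 124]). The 17 and 7 macrophage cells held 34 UMIs (55.4 CPM [38.4, 77.4]) and 12 UMIs (55.8 CPM [28.8, 97.4]), in 10 of 17 and 3 of 7 cells, so the level was alike in both libraries with few cells behind it. The difference from *Sox10*-positive cells was 2.06-fold [1.37, 3.15] and 1.81-fold [0.99, 3.64], the second of which did not exclude 1. In the *Sox10*-positive cells that reached no other class *Ednrb* was at 169 CPM [133, 211] and 170 CPM [130, 218]. These intervals lay above those of macrophages in both libraries. Surface ectoderm (8.27 and 2.53 CPM) and endothelium (2.26 and 1.26 CPM) stood lower, and mesenchyme held 1 and 5 *Ednrb* UMIs.

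*Sox10*-positive cells held 772843 of the 41880035 UMIs labelled WT and 899928 of the 52430844 labelled KO. That most ligand UMIs lay outside them is therefore no result by itself. *Nrg1*, which encodes neuregulin 1, had 220 and 267 UMIs in the optic vesicle (10.6 and 9.69 CPM). In *Sox10*-positive cells it had 3 UMIs in each library (3.88 and 3.33 CPM). Its highest mean level was in the forebrain gate, 15.6 CPM on 7 UMIs of both libraries. Among the partner receptors *Erbb2*, which binds no ligand itself, had 20 UMIs (25.9 CPM) and 19 UMIs (21.1 CPM) in *Sox10*-positive cells, and *Erbb4*, highest in the optic vesicle, was at 1.78 and 1.74 CPM there. *Egfr* was highest in mesenchyme, at 4.49 and 2.79 CPM. *Nrg2*, *Nrg3* and *Nrg4* had 24 UMIs at most in any class and library, and *Edn2* had 1.

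The endothelin ligands differed in place. *Edn3*, the endothelin that acts on *Ednrb* in crest cells, was counted at 14.0 and 11.8 CPM in mesenchyme (128 and 140 UMIs) and at 20.1 and 30.4 CPM in surface ectoderm (17 and 12 UMIs). *Edn1* was at 12.7 and 10.3 CPM in the optic vesicle (264 and 284 UMIs), and in surface ectoderm at 5.91 CPM (5 UMIs) and 32.9 CPM (13 UMIs). The sister receptor *Ednra*, a receptor of *Edn1* in facial crest mesenchyme, was highest in mesenchyme at 45.8 and 39.4 CPM, where *Ednrb* was at 0.11 and 0.42 CPM. In *Sox10*-positive cells the order was the other way round, with *Ednra* at 19.4 and 18.9 CPM under the *Ednrb* values above. Of the converting enzymes that cut the ligand precursors, *Ece1* was highest in endothelium (110 and 90.2 CPM), and *Ece2* stood between 25.6 and 42.8 CPM in the classes with 50 or more of its UMIs. UMIs of a 3′ library are counted once per captured transcript and not divided by length, so levels of different genes were set side by side only as captured UMIs.

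**Figure D2:**
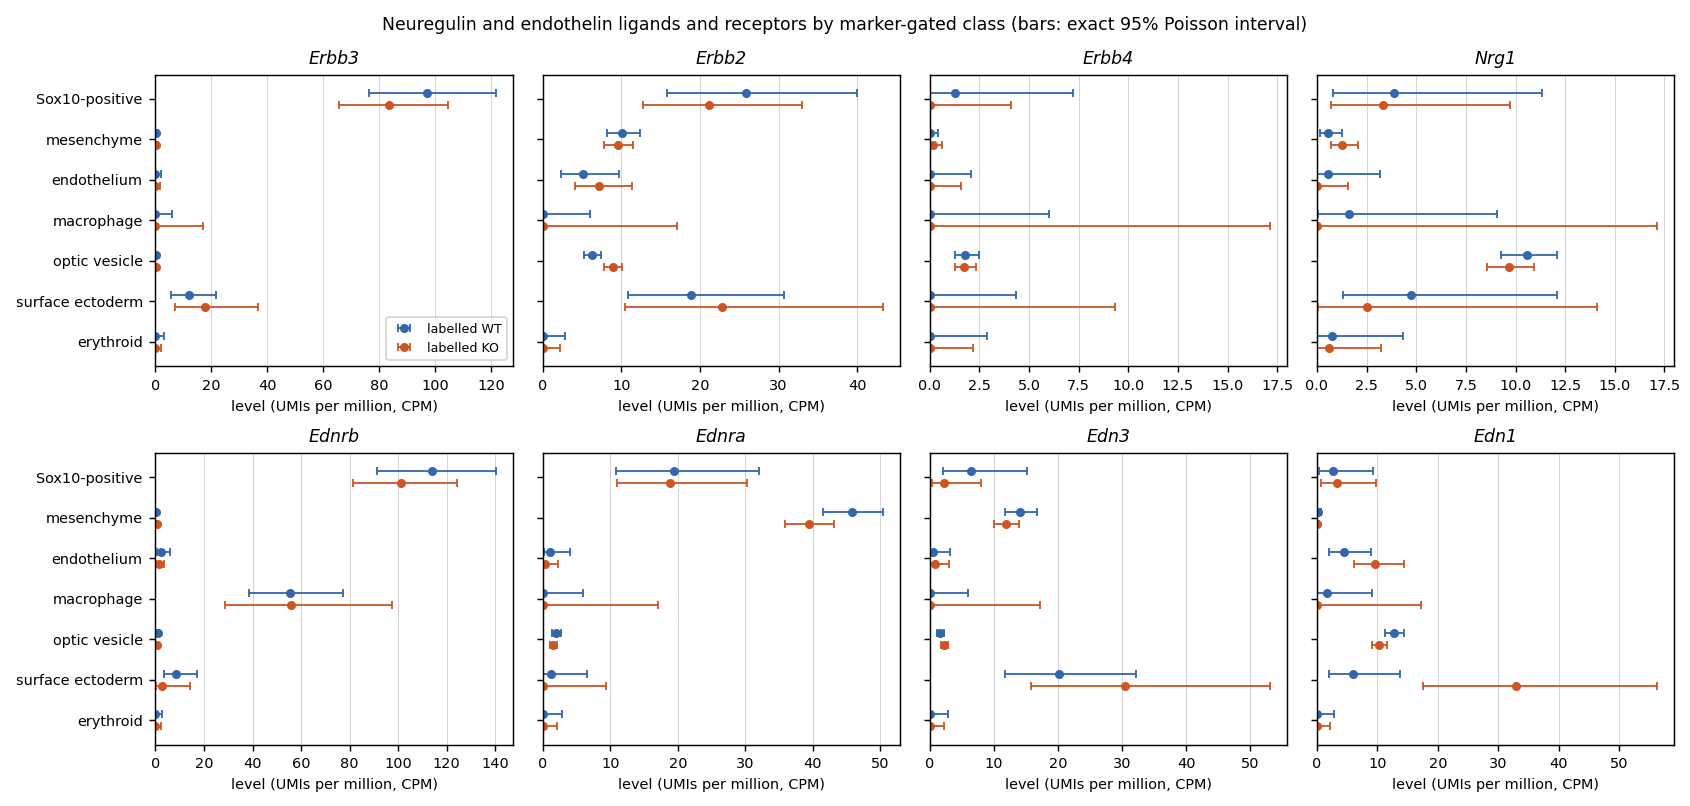
Level in CPM (x axis, linear and different for each panel) of *Erbb3*, its partners *Erbb2* and *Erbb4* and the ligand *Nrg1* (top), and of *Ednrb*, *Ednra*, *Edn3* and *Edn1* (bottom), in 7 marker-gated classes (y axis), with blue points for the WT-labelled library, orange for the KO-labelled library and bars for exact 95% Poisson intervals. Among these 7 classes, which leave out the forebrain gate, *Erbb3* and *Ednrb* peaked in *Sox10*-positive cells and *Nrg1* in the optic vesicle. *Ednra* peaked in mesenchyme and *Edn3* in surface ectoderm and mesenchyme.

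Between the libraries no member was past 1.5-fold in *Sox10*-positive cells among the 6 with at least 50 UMIs, where 8.73% of 4114 such genes were past that fold in either direction. All 6 lay below 1, between a ratio of KO over WT of 0.77 (*Sox10*, which set the gate) and 0.96 (*Zeb2*), with a median of 0.88 beside 1.04 over all 4114 genes. The ratio was 0.92 [0.66, 1.27] for *Ets1*, 0.89 [0.66, 1.20] for *Ednrb*, 0.88 [0.58, 1.32] for *Sox9* and 0.86 [0.62, 1.20] for *Erbb3*, each with an interval that held 1. *Sox10* itself was at 0.77 [0.63, 0.95], a ratio that depends on the gate and is not read as a difference. It was 0.69 with a gate of 1 or more *Sox10* UMIs and 0.88 with a gate of 3 or more. With the gate of 3 or more *Zeb2* (1.21), *Ednrb* (1.11) and *Ets1* (1.05) stood above 1. *Sox8* and *Foxd3*, with 30 and 25 UMIs, had too few for a count, and their ratios were 0.98 [0.45, 2.17] and 0.48 [0.19, 1.16].

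In the 26 and 24 *Sox10*-positive cells that reached no other class, 4 of these ratios were nearer to 1, beside a median of 1.05 over 2155 genes. *Sox10* stood at 360 CPM [306, 420] and 353 CPM [295, 420], a ratio of 0.98 [0.77, 1.25]. *Erbb3* stood at 139 CPM [107, 179] and 139 CPM [103, 183], a ratio of 1.0 [0.67, 1.47], and *Ednrb* at 169 CPM [133, 211] and 170 CPM [130, 218], a ratio of 1.01 [0.71, 1.43]. Both receptors and *Sox10* thus differed by less than the counting error, which still allows receptor differences of more than 1.4-fold. *Ets1* was at 139 and 134 CPM (0.96 [0.64, 1.42]) and *Zeb2* at 421 and 451 CPM (1.07 [0.86, 1.33]). *Sox9* stayed lower in the KO-labelled library, at 67.5 and 50.1 CPM (30 and 18 UMIs, 0.74 [0.39, 1.38]), and *Foxd3* at 33.7 and 16.7 CPM (15 and 6 UMIs, 0.49 [0.16, 1.35]), both with intervals that held 1. *Sox8* was at 18.0 and 25 CPM on 8 and 9 UMIs.

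**Figure D3:**
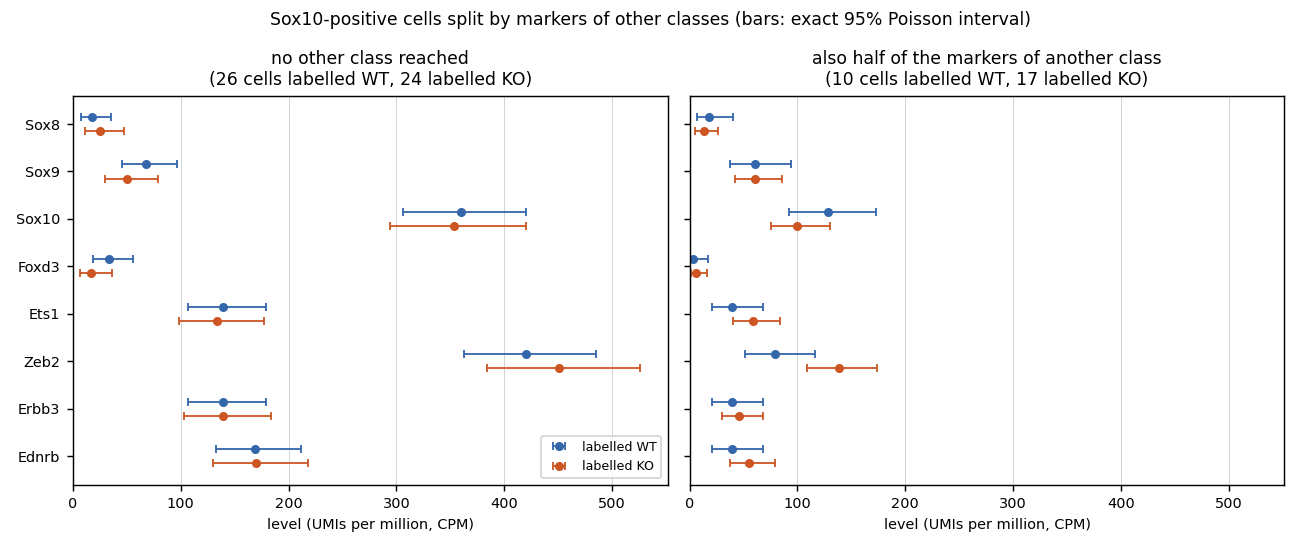
Level in CPM (x axis) of the 8 genes (y axis) in *Sox10*-positive cells that reached no other class (left) and in those that also showed at least 50% of the markers of another class (right), with blue points for the WT-labelled library, orange for the KO-labelled library and bars for exact 95% Poisson intervals. On the left the points of both libraries lie close together for *Sox10*, *Ets1*, *Erbb3* and *Ednrb*, and on the right *Sox10*, *Ets1*, *Zeb2*, *Erbb3* and *Ednrb* are lower than on the left in both libraries.

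Relative to the other *Sox10*-positive cells, *Sox10*, *Ets1*, *Zeb2*, *Erbb3* and *Ednrb* had a lower CPM in the cells that also showed another class. In them *Sox10* was at 128 CPM [92.2, 173] and 99.9 CPM [75, 130], *Erbb3* at 39.6 and 46.2 CPM and *Ednrb* at 39.6 and 55.5 CPM. *Zeb2* stood at 79.2 CPM (26 UMIs) and 139 CPM (75 UMIs), a ratio of 1.75 [1.11, 2.85]. Of the 6 member ratios with at least 20 UMIs in these cells, only that of *Zeb2* was past 1.5-fold or left out 1. This limit is lower than that of the main counts, and the share of all genes past 1.5-fold in these cells is not given here. In all *Sox10*-positive cells, a larger and unlike set, 17.8% of genes with at least 20 UMIs were past it. Without a share for the cells that also showed another class, the *Zeb2* ratio is not read as an excess. *Sox9*, by contrast with *Sox10* and both receptors, was at 60.9 and 61.0 CPM, a CPM like that of the other *Sox10*-positive cells. Its UMIs were 20 in 10 cells and 33 in 17 cells, against 30 in 26 and 18 in 24 of the others. Because *Sox10* set the gate, its lower level at a higher depth is partly given by the rule. For every member CPM is a share of all UMIs, so a lower CPM in deeper cells need not mean fewer UMIs per cell. *Ets1* had 13 UMIs in 10 cells against 62 in 26 (WT), and 32 in 17 against 48 in 24 (KO). *Zeb2* had 26 against 187 UMIs and 75 against 162 in the same cells. The part of depth in these levels was not tested.

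In mesenchyme 4 members had at least 50 UMIs and none was past 1.5-fold, where 4.1% of 10402 genes were. *Sox9* had a ratio of 0.96 [0.87, 1.06], *Sox8* of 0.92 [0.62, 1.37] and *Zeb2* of 0.87 [0.73, 1.05]. *Ets1* was the only one of them whose interval left out 1, at 0.81 [0.67, 0.99], beside a median of 1.0 over all genes. Mesenchyme differed in make-up between the libraries when the cells were clustered (described below). Among the clusters named after it were ones with 324 and 367, 75 and 276, and 66 and 14 cells labelled WT and KO. The part of this make-up in the mesenchyme ratios was not tested.

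In endothelium *Ets1* and *Zeb2* had enough UMIs and neither was past 1.5-fold, where 6.86% of 6970 genes were. *Ets1* came nearest, with 219 CPM [198, 242] in the WT-labelled library and 151 CPM [135, 167] in the KO-labelled library, a ratio of 0.69 [0.59, 0.80] and lower than in all but 4.84% of the genes. It passed the 1.5-fold limit under 3 of the other settings tried, among them the mean over cells. Median depths were 24900.5 and 20821 UMIs per cell, and *Ets1* was found in 96.8% and 91.8% of endothelium cells, or 69.4% [56.3, 80.4] and 50% [39.7, 60.3] after thinning. The summed level of the 8 endothelial markers was 2666 and 2524 CPM, and that of mesenchyme markers was 18.7 and 37.3 CPM, with 1 of 7 at 0 in the WT-labelled library. The part of these shifts in the *Ets1* ratio was not tested. *Zeb2* had a ratio of 0.81 [0.58, 1.13].

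The counted ETS relatives of *Ets1* in endothelium other than *Etv2* stood nearer to 1. *Erg* and *Fli1*, endothelial ETS factors, had ratios of 0.99 and 0.87, *Ets2*, the closest paralog, of 0.94, and *Elk3* of 1.04. *Etv2*, which acts early in the endothelial and blood lineages, was past the fold in the other direction with 9 and 48 UMIs (5.09 and 20.1 CPM, 3.95 [1.92, 9.16]). Of the 8 relatives 5 had at least 50 UMIs there, 1 past 1.5-fold, with a median ratio of 0.99 beside 1.01 over all 6970 genes.

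In the optic vesicle 1 of 3 members with enough UMIs was past 1.5-fold, where 3.0% of 11807 genes were in either direction and 1.58% were higher in the KO-labelled library. *Sox8* had 31 UMIs in 25 of 760 cells and 65 UMIs in 61 of 1112 cells, or 1.49 CPM [1.01, 2.12] and 2.36 CPM [1.82, 3.01], a ratio of 1.58 [1.01, 2.51] that counting error alone leaves close to 1. *Sox9* was at 32.8 and 40.5 CPM, a ratio of 1.23 [1.12, 1.36] above 92.8% of the genes, and *Zeb2* at 0.94 [0.87, 1.02]. The summed crest markers in this class were 12.9 and 13.1 CPM and the mesenchyme markers 38.4 and 40.5 CPM. Other markers differed more, those of surface ectoderm at 51.9 and 36.0 CPM and erythroid ones at 3.23 and 6.75 CPM. When cells were clustered, clusters named after the optic vesicle held 956 and 1354 cells, among them ones with 306 and 463 and with 117 and 246. The part of these differences in the *Sox8* and *Sox9* ratios was not tested.

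In surface ectoderm and in the forebrain gate no member reached 50 UMIs, and 12.5% of 3507 and 12.6% of 1001 genes were past 1.5-fold there. *Sox9* had 30 UMIs in 19 of 46 surface ectoderm cells and 5 UMIs in 5 of 26 (0.36 [0.11, 0.93]), and *Ednrb* had 7 and 1. In macrophages, where 14.6% of 2312 genes were past the fold, *Zeb2* had a ratio of 1.06 [0.73, 1.51], and *Ednrb*, short of 50 UMIs, of 1.01 [0.47, 1.99]. In erythroid cells (6.06% of 3463 genes) *Zeb2* stood at 1.0 [0.57, 1.77].

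**Figure D4:**
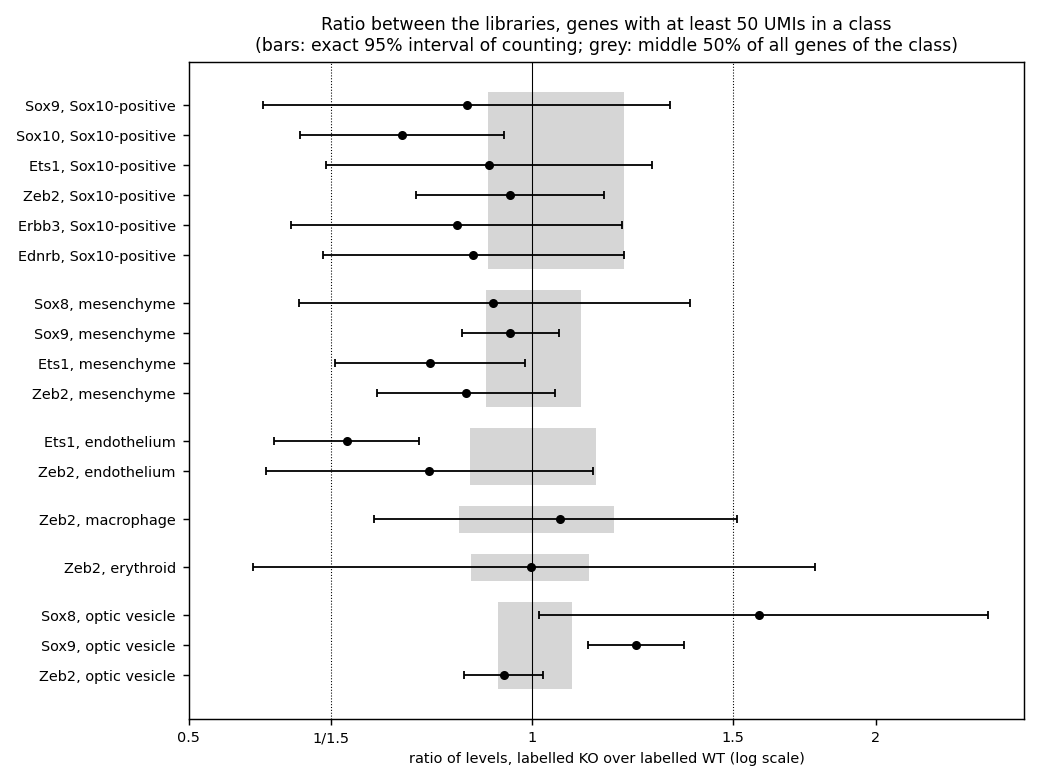
Ratio of the level in the KO-labelled library over that in the WT-labelled library (x axis, log scale) for each member with at least 50 UMIs in a class (y axis), with bars for the exact 95% counting interval, grey bands for the middle 50% of all genes of the class and dotted lines at 1.5-fold. *Ets1* in endothelium (0.69) lies furthest to the left and *Sox8* in the optic vesicle (1.58) furthest to the right.

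Of the 12 specifier factors with 50 or more UMIs in their highest class, 4 were highest in *Sox10*-positive cells (*Tfap2b*, *Pax3*, *Sox5* and *Id2*), 3 in mesenchyme (*Snai1*, *Msx1* and *Twist1*, the last of which is a marker of that gate) and 2 in surface ectoderm (*Tfap2a* and *Msx2*). *Zeb1*, the sister gene of *Zeb2*, was highest in endothelium. Between the libraries, of all 16 specifier factors 6 had at least 50 UMIs in *Sox10*-positive cells. None was past 1.5-fold, beside 8.73% of all 4114 genes, and the median ratio was 0.88 beside 1.04. The same share of 8.73% stands beside the counts of lineage and of migration genes in this class that follow. *Tfap2b*, an AP-2 factor of the early crest, was highest in this class at 314 and 261 CPM (0.83 [0.69, 1.0]), as was *Pax3*, a paired-box factor, at 94.5 and 87.8 CPM (0.93 [0.67, 1.30]). *Id2*, an inhibitor of basic helix-loop-helix factors, was at 485 and 343 CPM (0.71 [0.61, 0.82]) and *Sox5*, a SoxD factor, at 55.6 and 53.3 CPM. Of 14 crest lineage genes 3 could be counted and none was past the fold, among them *Fabp7*, a fatty acid binding protein of glia, at 64.7 and 78.9 CPM (1.22 [0.84, 1.79]) and *Mitf*, the pigment cell regulator, at 28.5 and 31.1 CPM. *Mitf* was highest in the optic vesicle (61.9 CPM, mean of both libraries), whose markers some *Sox10*-positive cells also showed. Its level in the cells that reached no other class is not given here. In the 26 and 24 cells that reached no other class *Fabp7* was at 81.0 and 173 CPM (36 and 62 UMIs, 2.13 [1.39, 3.31]), the only one of the 8 further crest markers whose interval left out 1. Of all genes with at least 50 UMIs in those cells 13.6% were past 1.5-fold. Of 13 migration and adhesion genes 5 could be counted and none was past the fold, with *Ngfr* at 190 and 196 CPM, the integrin gene *Itga4* at 126 and 124 CPM and the semaphorin receptor gene *Nrp2* at 148 and 100 CPM (0.68 [0.51, 0.90]). In the cells that reached no other class the ratio of *Id2* was 0.68 [0.55, 0.83], that of *Nrp2* was 0.70 [0.49, 0.99] and that of *Tfap2b* 0.91 [0.73, 1.13].

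Outside *Sox10*-positive cells some genes of the same lists were past 1.5-fold. In mesenchyme, where 4.1% of all genes were past it in either direction, 2 of 15 counted specifier factors were lower in the KO-labelled library, *Zic1* at 14.3 and 4.89 CPM (0.34 [0.25, 0.47]) and *Msx2*, a homeobox gene, at 26.5 and 16.4 CPM (0.62 [0.51, 0.75]). In the 5 and 13 cells of the forebrain gate *Zic1* was past the fold the other way, with 11 and 52 UMIs (103 and 232 CPM, 2.25 [1.16, 4.78]), beside 12.6% of all genes. Among the ETS relatives in mesenchyme 3 of 6 were higher, beside the same 4.1%, *Etv5* at 2.08 and 8.02 CPM (3.85 [2.34, 6.68]), *Etv4* at 2.31 and *Etv1* at 1.77, all of the PEA3 group. *Ngfr* (0.65 [0.51, 0.82]) and *Egfr* (0.62 [0.38, 1.01]) were lower in mesenchyme, and *Cdh6* (1.59 [0.87, 3.02]) and *Ret* (1.91 [1.16, 3.25]) were higher. All these mesenchyme ratios pool clusters whose shares differed between the libraries, and the part of this was not tested. In the optic vesicle 2 of 9 counted lineage genes were past the fold, beside 3.0% of all genes, among them *Isl1*, a LIM-homeobox factor (0.55 [0.32, 0.93]). In surface ectoderm 1 of 5 counted specifier factors and the 1 counted cartilage gene were past it, beside 12.5% of all genes. *Tfap2b* was at 164 and 88.7 CPM (0.54 [0.36, 0.79]), and *Col2a1*, a cartilage collagen and known *Sox9* target, at 82.7 and 144 CPM (1.75 [1.21, 2.51]). *Col2a1* and the other cartilage matrix genes with 50 or more UMIs were within 1.5-fold in mesenchyme, in the optic vesicle and in *Sox10*-positive cells, in 3, 3 and 2 genes. In endothelium the 1 counted lineage gene, *Kit* (1.69 [0.95, 3.12]), and 1 of 4 counted migration genes, *Robo1* (0.62 [0.35, 1.08]), were past the fold. Both intervals held 1, and 6.86% of all genes were past the fold there. None of the ERBB or endothelin genes with 50 or more UMIs in a class was past it there other than *Egfr*. Intervals left out 1 for *Erbb2* in the optic vesicle (1.42 [1.15, 1.78]), *Ednra* in mesenchyme (0.86 [0.75, 0.98]), *Edn1* in the optic vesicle (0.81 [0.68, 0.96]) and *Ece1* in endothelium (0.82 [0.67, 1.0]).

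Patterns over the 8 classes of both libraries (16 points, which share libraries and differ in depth) were compared among 11915 genes by Pearson's correlation of log2(CPM + 10), as a description. *Sox10* was most like *Prss12* (r = 0.998), which had 72.5% of its UMIs in *Sox10*-positive cells, and *Foxd3* was most like *Sox10* (r = 0.979). The gate sets the pattern of *Sox10*, so a gene counted mainly in that class is like it by the rule. *Foxd3* had 27 UMIs in the gated cells. *Erbb3* was most like *Fhdc1* (r = 0.996) and *Phactr1* (r = 0.977), and *Ednrb* like *Itga4* (r = 0.930). For the genes of wider pattern the nearest were *Spon1* for *Sox8* (r = 0.993), *Vcan* for *Sox9* (r = 0.971), *Rftn2*, *Kitl* and *Lama4* for *Ets1* (r = 0.973, 0.973 and 0.972) and *Deb1* for *Zeb2* (r = 0.863). *Prss12* was the only gene among the nearest 3 of more than 1 member, those of *Sox10* and *Foxd3*.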

How the data were processed

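Libraries had been made with the 10x Chromium 3′ kit from 2 embryos. The authors demultiplexed and aligned the reads to mm10/GRCm38 with Cell Ranger, merged the libraries with its aggr program, which can even out depth, and deposited whole-number UMI counts per gene and cell. Cells were kept when 1500 to 8000 genes were detected and mitochondrial genes took at most 5% of their UMIs. Members, marker lists and pathway lists were chosen with earlier results of these data known. Markers defined classes as described. Doublets were not removed beyond leaving out cells of several classes. This did not apply to *Sox10*-positive cells, of which 10 and 17 with markers of another class were kept. Scrublet (scanpy 1.11.5) and clustering (Seurat 5.3.0 in R 4.3.3, 40 principal components, resolution 0.6, without the 8 genes) served as alternatives. Clusters held 58 of 77 *Sox10*-positive and 1205 of 1210 mesenchyme cells. Levels are UMI sums over class totals. As each genotype had 1 library, a gene counted as past the fold at a ratio of at least 1.5, or of at most its inverse, with at least 50 UMIs in both libraries together, and the background is the share of all such genes. A share or level at 0 is given the limit of 3 counts. The named genes were the members, every listed gene with 50 or more UMIs that was highest in a class or past the fold, all ligands, partner and sister receptors, the 3 genes most like each member among those with at least 100 UMIs, and the 3 highest and lowest ratios in *Sox10*-positive cells. Values of some genes that this rule names are not reported here. Identifiers of 27645 of 27998 genes matched GENCODE vM21. The ratios and intervals were tried on simulated Poisson counts without variation between cells, which cannot show how they hold beyond counting error. Computations ran in Python 3.11.15 (scipy 1.17.1, numpy 2.4.6, pandas 2.3.3), and figures were drawn with matplotlib 3.10.9.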

Additional observations from a re-analysis of the deposited data

How the results depend on the processing

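No paired analysis was possible because each genotype had 1 library, and for the same reason no replicate could be left out. Of the single-gene ratios under the alternatives 188 stayed within their counting interval and 7 left it. The 188 include ratios that could not move, because the setting left the cells of that class unchanged. Other marker shares and the better-class rule did not touch *Sox10*-positive cells. Leaving out *Sox10*-positive cells with another class did not touch the other classes. The count is thus no measure of stability. Ratios for which the alternatives lie on both sides of 1 are given below, and for *Sox8* in mesenchyme thinning turned 0.92 to 1.87, on too few UMIs to count. The number of members past 1.5-fold went from 0 to 1 in endothelium (*Ets1*) when cells of several classes were given to the better one, with the mean over cells and after thinning to 6000 UMIs, and from 0 to 1 in mesenchyme (*Ets1*) after thinning. Of all genes 7.25%, 10.4% and 11.4% were past it under these settings in endothelium, and 5.39% in mesenchyme. The number of members went from 1 to 0 in the optic vesicle after thinning, which left too few *Sox8* UMIs, and with a fold of 2, beside 4.38% and 0.423% of all genes. With at least 20 UMIs it went from 0 to 1 in *Sox10*-positive cells (*Foxd3*), the forebrain gate (*Zeb2*) and surface ectoderm (*Sox9*), and from 1 to 2 in the optic vesicle (*Ednrb*). In the same order of classes 17.8%, 24.5%, 22.3% and 6.22% of all genes with at least 20 UMIs were past the fold. Over all alternatives the ratio ranged from 0.54 to 0.69 for *Ets1* in endothelium, from 0.60 to 0.85 for *Ets1* and from 0.93 to 1.02 for *Sox9* in mesenchyme, from 1.55 to 2.73 for *Sox8* and from 1.16 to 1.24 for *Sox9* in the optic vesicle, and in *Sox10*-positive cells from 0.69 to 0.98 for *Sox10*, from 0.69 to 1.0 for *Erbb3*, from 0.68 to 1.11 for *Ednrb* and from 0.82 to 1.05 for *Ets1*, from 0.74 to 0.96 for *Sox9* and from 0.81 to 1.21 for *Zeb2*. Scaling by the median gene ratio shifted no class by more than 0.06 on the log2 scale. In *Sox10*-positive cells *Foxd3* and *Sox8* had too few UMIs for a count.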

Other observations

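The 116 WT-labelled and 178 KO-labelled cells that reached no class held 26 and 1 *Ednrb* UMIs. In the WT-labelled library 18 of the 26 came from 3 cells. *Erbb3* had 10 and 3 UMIs in these cells and *Zeb2* 134 and 110. Of the 4 cells with at least 2 *Ednrb* UMIs, 2 had 1 *Sox10* UMI, which is below the gate.

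Among the 2270 genes with at least 100 UMIs in *Sox10*-positive cells, the highest ratios of KO over WT belonged to *Cdc20*, a mitotic regulator (42.7 and 130 CPM, 3.04 [2.05, 4.63]), *Sfrp2*, a secreted Wnt inhibitor (2.92 [2.17, 4.0]), and *Hba-x*, an embryonic globin (2.51 [1.61, 4.05]). In the cells that reached no other class *Cdc20* was at 2.24 [1.28, 4.02] and *Hba-x* at 4.02 [2.06, 8.44], whereas *Sfrp2* had 6 and 4 UMIs. The summed erythroid markers, without *Hba-x*, had a higher CPM in the KO-labelled library in every class. In macrophages (3 and 2 UMIs), surface ectoderm (4 and 3) and the forebrain gate (0 and 4) these markers had too few UMIs for a direction. They stood at 3.83 and 9.03 CPM in mesenchyme, 3.40 and 13.8 CPM in endothelium and 3.23 and 6.75 CPM in the optic vesicle. The part of this erythroid difference in the *Hba-x* ratio was not tested. The lowest ratios belonged to *Wac* (0.57 [0.40, 0.80]), *Bod1l* (0.58 [0.40, 0.84]) and *Fundc2* (0.59 [0.42, 0.82]).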
